A study of Homo sapiens with 42 samples.

Results

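IFNG + EGF was compared between 48 h and 24 h of treatment in MCF10A cells, using the 3 libraries of each time, which are 6 of the 42 libraries of the series and 2 of its 13 groups. The 6 libraries were chosen by their titles alone. They come from ATACseq (transposase-accessible chromatin read by sequencing), in which a transposase cuts and tags DNA that is not packed away by nucleosomes, so that peaks of reads mark open regulatory DNA. MCF10A is an immortalized, non-tumorigenic line of human breast epithelium, and all groups are the same line. Cells were grown in medium with horse serum, EGF, hydrocortisone, cholera toxin and insulin, were moved to a medium that lacks EGF and insulin, and then received ligand. The IFNG + EGF cells received IFNG at 20 ng/ml together with EGF at 10 ng/ml for 24 h (replicates A, B and C) or 48 h (replicates A, B and C). The reference was 12 libraries without IFNG: 4 CTRL libraries taken at 0 h, before any ligand, and EGF at 10 ng/ml for 24 h (4 libraries) and 48 h (4 libraries). The other 24 libraries of the series, treated with PBS, HGF, OSM or TGFB + EGF for 24 h or 48 h, served to ask where else a site was open and entered 1 alternative fit over all 42 libraries.

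Interferon gamma (IFNG) binds a receptor made of IFNGR1 and IFNGR2, which activates the kinases JAK1 and JAK2. The signal reaches DNA at the gamma-activated sequence (GAS) and turns on a first set of genes, among them IRF1. IRF1 and other factors of its family then bind the interferon-stimulated response element (ISRE), found at antigen presentation, guanylate-binding protein, chemokine and antiviral genes, while SOCS1 and the phosphatase PTPN2 dampen the signal. Comparing 48 h with 24 h asks which IFNG-dependent openings are passing, which last and which come late.

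A peak is a region called in 1 library by MACS2. Peaks of the 6 libraries that overlapped by at least 1 bp were merged into 96180 sites, and a site was named by the protein-coding gene with the nearest transcription start. An opening is a site with no peak in any of the 12 CTRL and EGF libraries, and 13354 of the 96180 sites were openings. An early opening had a peak in at least 2 of 3 libraries at 24 h and 0 of 3 at 48 h, a late opening the converse, and a lasting opening a peak in at least 2 of 3 at both times. By these definitions 120 openings were early, 885 lasting and 1384 late. Since the absence of a peak in CTRL and EGF, and the pattern over the 6 libraries, define these classes, neither is a finding. The motifs, genes and other ligands below were not used in the definition.

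The genomic sequence of 4 openings near interferon pathway genes, 2 lasting and 2 late, is shown to let the ISRE and GAS strings counted below be seen in place. Each run is 201 bases of the plus strand of hg38 centered on the summit, printed 5′ to 3′ in lower case, with matches to the ISRE (GAAANNGAA) or GAS (TTCNNNGAA) string on either strand in capitals. The lasting openings lie near GBP5 (chr1:89286912-89287112), a guanylate-binding protein, and PTPN2 (chr18:12904091-12904291). The GBP5 run holds 1 ISRE and 1 GAS match, and the PTPN2 run holds 2 GAS matches and no ISRE match.
GBP5, lasting: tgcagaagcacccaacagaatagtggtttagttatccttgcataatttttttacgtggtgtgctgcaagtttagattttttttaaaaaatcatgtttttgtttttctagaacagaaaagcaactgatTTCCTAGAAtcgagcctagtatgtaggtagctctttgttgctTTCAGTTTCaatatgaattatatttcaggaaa
PTPN2, lasting: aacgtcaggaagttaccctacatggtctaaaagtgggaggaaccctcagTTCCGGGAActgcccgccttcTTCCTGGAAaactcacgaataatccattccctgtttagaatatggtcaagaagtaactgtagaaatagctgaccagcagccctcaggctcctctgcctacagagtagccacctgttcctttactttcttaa
The late openings lie near IFNGR2 (chr21:33394350-33394550), the second chain of the IFNG receptor, and CASP8 (chr2:201273434-201273634), the initiator caspase of death receptors.
IFNGR2, late: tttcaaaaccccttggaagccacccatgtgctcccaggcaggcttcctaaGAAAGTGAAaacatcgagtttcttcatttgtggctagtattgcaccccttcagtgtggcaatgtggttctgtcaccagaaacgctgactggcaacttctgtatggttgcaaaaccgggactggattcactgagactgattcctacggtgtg
CASP8, late: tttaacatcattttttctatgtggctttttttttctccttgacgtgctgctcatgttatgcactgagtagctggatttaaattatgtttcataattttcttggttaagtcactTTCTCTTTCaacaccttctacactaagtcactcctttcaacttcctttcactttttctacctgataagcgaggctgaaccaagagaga
In the strength of these sites, given as the fold enrichment of the pileup over the local background at the summit, the GBP5 opening had 9.07 and 6.61 in 24 h A and B and 8.98 and 11.4 in 48 h A and B. The PTPN2 opening had 9.82, 4.77 and 6.6 at 24 h and 6.39 and 9.12 in 48 h A and B. The IFNGR2 opening had 7.69 and 8.71 and the CASP8 opening 5.66 and 8.39 in 48 h A and B, with no peak at 24 h. None of these 4 sites had a peak in 48 h C.

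One library stood apart. A supplementary figure legend of the study says, without naming them, that IFNG + EGF libraries of low quality were left out of its motif analysis. Its methods removed libraries with a low fraction of reads in peaks. IFNG + EGF 48 h C had 5740 peaks, against 66048 and 79577 in 48 h A and B and 63884, 24724 and 37914 in 24 h A, B and C. It also had the lowest median fold enrichment (5.03, against 5.34 to 7.02 in the other 5), the highest share of promoter-proximal peaks (38.7%, against 17.2% to 30.4%) and the highest share of summits on contigs outside the primary chromosomes (8.29%, against 2.13% to 2.54%). The EGF libraries had 37865 to 85320 peaks and the CTRL libraries 90320 to 92947. Peak number averaged 42174.0 ± 19924.5 at 24 h and 50455.0 ± 39310.7 at 48 h (mean ± SD, n = 3 each), and log10 of peak number differed by -0.0993 (48 h minus 24 h, exact permutation p = 1, two-sided). Read counts are not in the files analysed here, and the depth of a library is therefore unknown. Every result below is therefore given with 48 h C and, where it can be, over the 5 other libraries. The study's methods call the replicates biological, and the p-values measure the spread between these samples. In bulk ATACseq, fewer cells with an open site and a less open site in every cell cannot be told apart.

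The labelled cell type was checked at the starts of marker genes. A peak within 1000 bp of the start was present in at least 2 of 3 libraries for 4 of 8 basal mammary markers at 24 h and 6 at 48 h, and for 2 and 5 of 6 general epithelial markers. Of 5 leukocyte markers 1 (CD14) had such a peak at each time, of 3 endothelial and 5 fibroblast or muscle markers none did, and of 5 luminal hormone response markers 1 (FOXA1) did at each time. Of all 20007 protein-coding genes, 10324 had such a peak at 24 h and 12229 at 48 h. The shares of basal and epithelial markers thus did not exceed that of all genes at 24 h, and did at 48 h.

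In each library, openings made up 3.64% to 10.3% of the sites outside 48 h C. They numbered 4798, 879 and 1587 in 24 h A, B and C and 4895 and 8185 in 48 h A and B. The ISRE string was found within 100 bp of the centre summit in 36.7%, 36.5% and 42.7% of the openings at 24 h and in 39.5% and 37.3% in 48 h A and B. At the other sites of the same libraries, those with a peak in CTRL or EGF, the share lay between 7.46% and 8.43%. These 5 libraries thus held ISRE sequence in their openings at a similar share at both times. In 48 h C, 965 openings made up 16.9% of its sites and 782 of them (81%) were found in no other library, with the ISRE string in 17.4% of its openings and 10.4% of its other sites. Openings found in 1 library only made up 20.5% to 49.8% of the openings of the other 5.

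**Figure D1:**
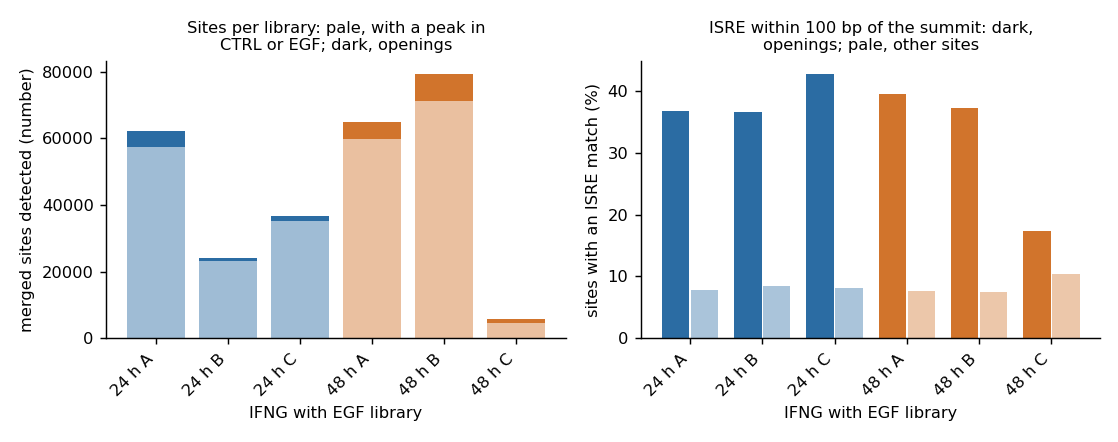
Left, number of merged sites with a peak in each IFNG + EGF library, split into openings (dark) and sites with a peak in CTRL or EGF (pale). Right, percent of those openings (dark) and other sites (pale) with an ISRE match within 100 bp of the summit; in the 5 libraries other than 48 h C the dark bars lie between 36.5% and 42.7% and the pale bars between 7.46% and 8.43%.

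The ISRE string was most frequent in the lasting openings. It was present in 472 of the 885 lasting openings (53.3%), 41 of the 120 early openings (34.2%) and 535 of the 1384 late openings (38.7%), against 6.65% to 8.07% of the sites of the same patterns that had a peak in CTRL or EGF. Over all 96180 sites the ISRE share was 10.9%. Among the openings of highest fold enrichment percentile it was 30% for the 30 early, 63.5% for the 222 lasting and 53.8% for the 346 late ones. The GAS share fell from early over lasting to late openings: 26 early openings (21.7%), 152 lasting openings (17.2%) and 125 late openings (9.03%) held it, against 9.9%, 7.22% and 6.58% of the sites with a reference peak and 8.06% of all sites. Both strings together were found in 6.67% of early, 8.02% of lasting and 3.54% of late openings.

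Strings of other factors were searched in the same way. The AP-1 string (TGANTCA), bound by FOS and JUN factors downstream of growth factor receptors, was found in 29.2% of early, 25.6% of lasting and 16.3% of late openings, and in 52.9%, 37.1% and 28.3% of the sites of the same patterns with a reference peak. The C/EBP string (TTGCNNAA) was found in 8.33%, 17.6% and 18.8% of early, lasting and late openings, beside 9.34%, 11.9% and 18% of the sites with a reference peak. All 18 strings, of which 2 were reversed controls, were searched on both strands. The reversed ISRE string (AAGNNAAAG) was also found in 34.7% of lasting openings, against 8.1% of all sites, and 314 of the 672 openings with a reversed match (46.7%) had it overlapping an ISRE match. Among openings without an ISRE match, the reversed string was in 7.59% of early, 25.4% of lasting and 17.2% of late ones. In lasting and late openings this control was thus frequent beyond its overlap with ISRE matches. The reversed GAS string was found in 6.67% of lasting openings, beside 5.48% of all sites.

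**Figure D2:**
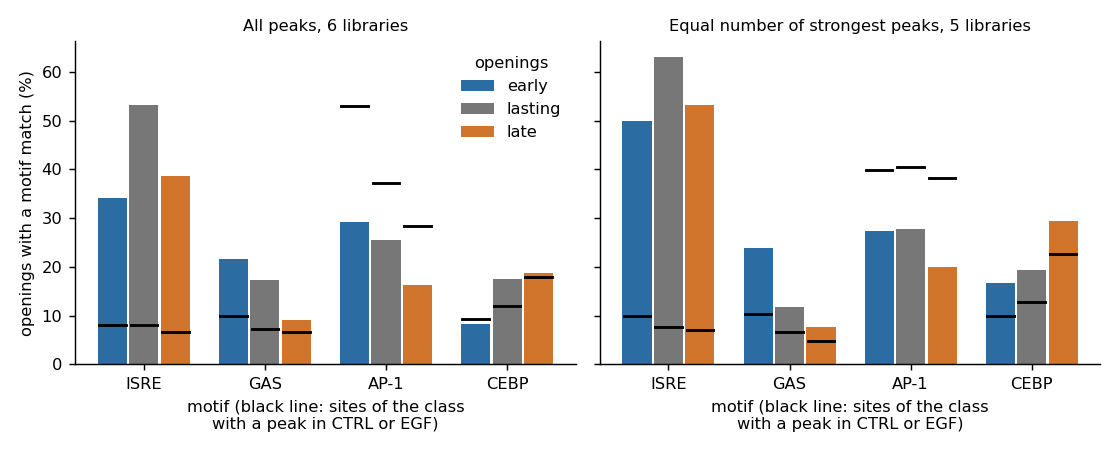
Percent of early, lasting and late openings with a match to the ISRE, GAS, AP-1 or C/EBP string within 100 bp of the summit; black lines give the same share among sites of the pattern with a peak in CTRL or EGF. Left, all peaks of 6 libraries (120, 885 and 1384 openings); right, the same number of strongest peaks from each of 5 libraries (168, 206 and 105 openings). In both, the GAS bars fall from early to late and the C/EBP bars rise.

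Promoters held few openings of any class: 3.33% of early, 2.94% of lasting and 3.03% of late openings lay within 1000 bp of a transcription start, against 14.9% of all sites. Their median distances from a start were 50500, 41916 and 46167 bp. Lasting openings were wider (median 465 bp) than early (267 bp) and late ones (344 bp), and ranked higher in fold enrichment within a library (median percentile 52.5, against 26.2 and 28.4). A class that asks for peaks in more libraries favors strong sites, so these ranks are a description. Most openings were not shared with the other ligands: 68 early (56.7%), 682 lasting (77.1%) and 1107 late openings (80%) had no peak in any of the 24 PBS, HGF, OSM and TGFB + EGF libraries. The share was 77.8% for all 13354 openings and 13.5% for all 96180 sites. Lasting and late openings thus lay near the share of all openings, and early ones below it. Lasting openings with an ISRE match had none in 83.5% of cases and those without a match in 69.7%; for late openings the shares were 89.5% and 74%, and for early openings 73.2% and 48.1%. The library of another treatment that detected most early openings was OSM 24 h A (19.2%), which also detected most lasting ones (8.25%), and PBS 24 h A detected most late ones (8.16%). Of all sites with the same patterns, OSM 24 h A detected 73.9% of early and 95.2% of lasting ones. PBS 24 h A detected 68.2% of late ones. These shares were also the highest of the 24 libraries, but for TGFB + EGF 24 h A in the early pattern (74.1%). Whether the ranking reflects the treatment was not tested.

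**Figure D3:**
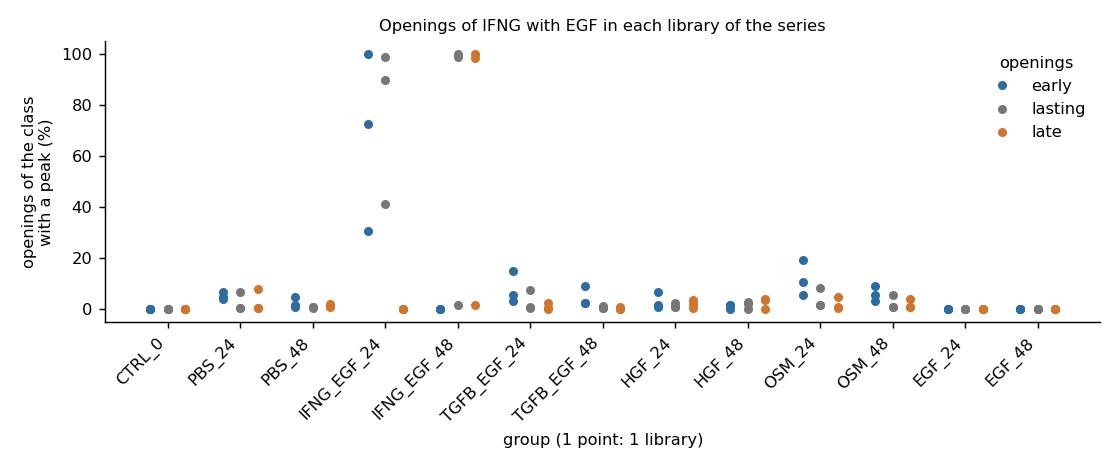
Percent of the early (120), lasting (885) and late (1384) openings of IFNG + EGF with a peak in each of the 42 libraries, 1 point a library, by group. CTRL and EGF are at 0 by definition; outside IFNG + EGF no library exceeds 19.2%, and 48 h C lies near 2% for lasting and late openings.

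The class sizes rest on few libraries. Of the 3 libraries of each time, 24 h A held all 120 early openings, and 24 h B and C held 30.8% and 72.5%. The lasting openings were detected in 98.9%, 41.2% and 89.8% of cases by 24 h A, B and C and in 100%, 98.9% and 1.92% by 48 h A, B and C. The late openings were detected in 99.9%, 98.3% and 1.88% of cases by 48 h A, B and C. In 3 of 3 libraries of one time and none of the other there were 4 early and 0 late openings, and 5 openings had a peak in all 6 libraries. Without 24 h A the counts were 4 early, 275 lasting and 2312 late; without 24 h C they were 37, 355 and 1468; without 48 h A they were 164, 7 and 2, and without 48 h B they were 270, 17 and 24. Without 48 h C they were 141, 875 and 1358. Late openings outnumbered early ones when all peaks of the 6 libraries were used, and the order reversed when each of the 5 libraries other than 48 h C was cut to its 24724 strongest peaks, which gave 168 early, 206 lasting and 105 late openings.

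At this equal number of peaks the ISRE, GAS and C/EBP shares kept their order over the classes, while the AP-1 share, at 27.4%, 27.7% and 20% of early, lasting and late openings, no longer fell throughout. ISRE matches were in 84 of 168 early (50%), 130 of 206 lasting (63.1%) and 56 of 105 late openings (53.3%), against 7.04% to 9.95% of the sites with a reference peak. GAS matches fell from 40 early (23.8%) over 24 lasting (11.7%) to 8 late openings (7.62%), and among the sites with a reference peak from 10.4% over 6.71% to 4.85%. C/EBP matches rose from 28 (16.7%) over 40 (19.4%) to 31 (29.5%), and among the sites with a reference peak from 10% over 12.8% to 22.7%. Sites open without IFNG thus showed the same order of GAS and C/EBP shares as the openings. Most early openings of this cut were not lost at 48 h but ranked lower there. They were matched to the sites of all peaks by pattern over the 6 libraries, whether or not those sites had a reference peak. Of the 168, 119 had the lasting pattern, 11 the early pattern and 38 fell in no class. Of the 105 late ones 40 had the late pattern, 14 the lasting pattern and 51 fell in no class. Early openings of this cut included the start of WARS1, the interferon-induced tryptophanyl-tRNA synthetase (fold enrichment 7.45, 6.66 and 6.18 at 24 h and, outside the cut, 7.41 and 6.61 in 48 h A and B), and sites near PML, NLRC5, PTPN2, LAP3, IDO1 and the CXCL9, CXCL10 and CXCL11 cluster, 8 sites in all; lasting ones lay near GBP5, NLRC5 and IL7, and no late one lay within 50 kb of a gene of the interferon lists.

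Libraries of like peak number gave the closest comparison of the times. Of the 4798 openings of 24 h A, 41.5% had a peak in 48 h A, and of the 4895 of 48 h A, 40.7% had one in 24 h A. With an ISRE match these shares were 58% and 52.8%, without one 32% and 32.8%, and among sites with a reference peak 81.5% and 78.1%. The 1587 openings of 24 h C were found in 24 h A in 65% of cases and in 48 h A and B in 59.2% and 68.2%, and the 879 openings of 24 h B in 53% and in 47.7% and 49.6%. Openings of 48 h A were found in 48 h B in 66.6% of cases.

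Single sites were then tested between the times. Detection of a site in a library (1 or 0) was adjusted for peak number by subtracting the share that this library detects among the sites found in the same number of libraries. Of 64571 sites found in 2 to 5 libraries, 0 were higher at 48 h (0%) and 0 higher at 24 h (0%) by limma, where a call needed a difference of 0.5 or more and a p below 0.05 after Benjamini-Hochberg adjustment. The lowest adjusted p was 0.455, and 806 sites had an unadjusted p below 0.05, all of them lower at 48 h. The adjusted measure was not even between the directions. Peaks in 48 h A and B alone gave a difference of 0.31 (limma unadjusted p = 0.0745), below the 0.5 needed for a call. Peaks in 24 h A and C alone gave -1.02 (limma unadjusted p = 0.0318). The direction of the 806 sites therefore does not show a loss at 48 h. By log2 fold enrichment at the 3347 sites found in all 6 libraries, 0 were stronger at 48 h (0%) and 0 at 24 h (0%), with 159 at an unadjusted p below 0.05 (103 up and 56 down). The change from 24 h to 48 h in IFNG + EGF did not pass the threshold for a difference from the change in EGF at any of 81353 sites (0%; 4531 at an unadjusted p below 0.05). On simulated data, sites given a peak in every library of one time and in no library of the other were not called by the detection test either, so its counts of 0 carry no information on how many sites differed.

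Without 48 h C, 19780 sites had a peak in the other 5 libraries. By limma 0 of them were stronger at 48 h (0%) and 2 at 24 h (0.0101%), with 2706 at an unadjusted p below 0.05. The first was at chr7:107564843-107565222, 806 bp from a start of COG5, a subunit of a Golgi tethering complex, with fold enrichment 9.54, 6.52 and 7.37 at 24 h and 4.05 and 3.08 at 48 h. The second was at chr19:26385321-26385897, 2298330 bp from the nearest gene start (of ZNF254), with 13.6, 9.87 and 8.96 at 24 h and 5.34 and 5.57 in 48 h A and B, but 12.4 in 48 h C. The first site also had a peak in 7 EGF, 4 CTRL and 12 other libraries, and the second in 8, 4 and 24. Both differed by -1.38 on the log2 scale (SE 0.2, limma adjusted p = 0.0309), and their groups did not overlap within the 5 libraries. Before normalization both 48 h libraries lay below all 24 h libraries at 1.23% of the 19780 sites and above them at 56.6%, so a separation upwards was common. With 48 h C, which had the second site, its adjusted p was 0.952. The number called depended on the scaling: 28 and 289 sites were stronger at 48 h and at 24 h with median centring, and 25 and 127 with cyclic loess, so that 48 h had the fewer calls under each.

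The 8 EGF libraries were then added to the 5, after the first results had been seen, to share the estimate of the spread and to show the change with time that EGF alone makes. Of 16900 sites found in all 13 libraries, 48 were stronger at 48 h than at 24 h of IFNG + EGF (0.284%) and 87 stronger at 24 h (0.515%). For EGF alone 1 site was stronger at 48 h (0.00592%) and 8 at 24 h (0.0473%), and no site passed for a difference between the changes with time (0%; 1204 at an unadjusted p below 0.05). The 48 sites had a median log2 difference of 0.88 in IFNG + EGF and 0.14 in EGF, and 38 of them (79.2%) were higher at 48 h in EGF too, beside 51.8% of all 16900 sites. The 87 sites had medians of -0.94 and -0.27, with 76 (87.4%) lower at 48 h in EGF, beside 48.2% of all sites. All of these sites have a peak in EGF, so none is an opening. ISRE matches were in 2.08% of the 48 and 2.3% of the 87, against 6% of all sites of the fit, and AP-1 matches in 29.2% and 51.7%, against 34.3%. C/EBP matches were in 22.9% and 10.3%, against 10.8%. Promoter-proximal sites made up 10.4% and 6.9% of them, against 37.8% of the fit.

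Named examples of these sites follow the order of their p-values. Stronger at 48 h were a site 14199 bp from a start of PLA2G6, a phospholipase (fold enrichment 5, 3.77 and 3.13 at 24 h, 9.91 and 12.4 at 48 h, log2 difference 1.11, SE 0.19, limma adjusted p = 0.00795), a site inside ASPSCR1, a tether of the glucose transporter GLUT4 (6.75, 3.51 and 3.83, then 12.1 and 14.6), and one inside FOXK2, nearest to WDR45B (5.73, 3.68 and 4.48, then 12.8 and 13.7). At each of these sites both 48 h libraries lay above all libraries of 24 h, as at most sites before normalization. The ASPSCR1 site also had a peak in 48 h C, at 3.73, within the values of 24 h. Stronger at 24 h were a site inside GBF1, 49854 bp from a start of NFKB2 (8.09, 6.31 and 6.95 at 24 h, 4.07 and 3.89 at 48 h, log2 difference -1.27, SE 0.19, adjusted p = 0.00568), one near HMHB1 (18.5, 12.4 and 12.2, then 9.01 and 8.38) and one near FJX1 (9.25, 5.86 and 10.4, then 4.26 and 4.76). At these sites the groups did not overlap either, in the other direction. The site inside GTF2F2 nearest to KCTD4, at 12.1, 6.66 and 7.85 and then 3.49 and 6.89, passed with overlapping values before normalization (log2 difference -1.33, adjusted p = 0.00568).

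**Figure D4:**
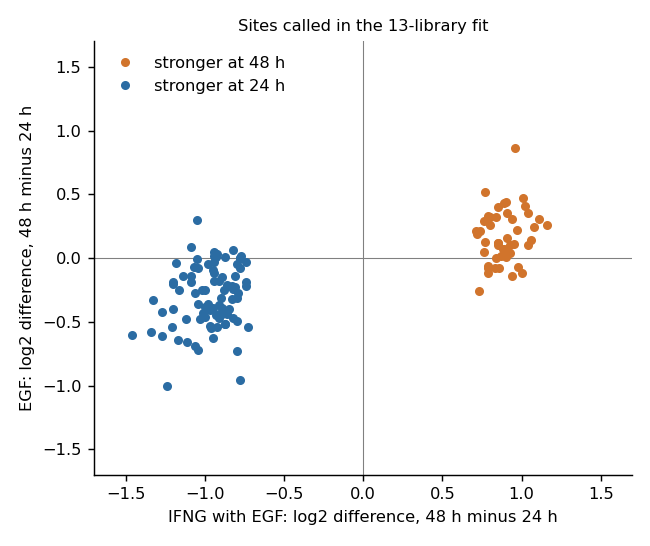
Log2 difference in quantile normalized fold enrichment, 48 h minus 24 h, in EGF (vertical axis) against IFNG + EGF (horizontal axis) at the 48 sites stronger at 48 h and the 87 stronger at 24 h of IFNG + EGF in the fit of 13 libraries. The horizontal gap was made by the threshold; on the vertical axis 38 of the 48 sites lie above 0 and 76 of the 87 below.

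The genes of the IFNG pathway were followed through 9 lists with 146 genes. A peak at the start was present in at least 2 of 3 libraries for 106 of the genes at 24 h and for 119 at 48 h, and the 106 were all among the 119. The 13 genes gained make up 8.9% of the lists, beside 9.78% of all 20007 protein-coding genes (1956 genes), and 0 were at 24 h only, beside 0.255%. Of the 13 gained starts 8 had a peak in at least 1 CTRL or EGF library and 5 (CXCL10, IFI27, MX2, XAF1 and SERPING1) had none. Openings were more frequent near the lists than near all genes: 34 genes (23.3%) had a lasting opening within 50 kb of a start, against 4.22% of all genes, 21 (14.4%) a late one, against 6.31%, and 1 (0.685%) an early one, against 0.51%. The lists were chosen with earlier results of these data known, and neighboring genes such as CXCL9, CXCL10 and CXCL11 share openings, so these shares are a description. Growth factor response genes, a list outside the pathway, had a lasting opening for 1 of 16 genes, DUSP6 (6.25%), and a late one for 2 of 16 (12.5%). The late share of this list thus lay near the 14.4% of the interferon lists.

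Receptor and signaling genes were open at their starts throughout: all 11 had a start peak in at least 2 of 3 libraries at both times. Of all protein-coding genes 51.3% did. Of 29 sites within 50 kb that were present in the 5 libraries, 6 (20.7%) were higher at 48 h, with a median log2 difference of -0.1. The JAK2 start had a peak in all 6 libraries (11.2, 8.45 and 8.7, then 11.2, 10.1 and 7.17). Values of the times overlapped, and the start did not pass the test over the 5 libraries (limma adjusted p = 0.422). SOCS1 had 2 lasting openings near its start, one 2695 bp away with an ISRE match (4.9 and 3.83 in 24 h A and C, 4.35 and 4.93 in 48 h A and B) and one 15365 bp away with a GAS match (5.25 and 3.73, then 4.26 and 8.52). STAT2 had a lasting and JAK1 a lasting opening as well, while IFNGR2 had the late opening printed above, which 7 of the 24 libraries of other treatments also held.

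Among the IRF and transactivator genes, the IRF1 start had fold enrichment 7.24, 4.6 and 5.73 at 24 h, then 7.33, 8.91 and 3.71. A second, wide IRF1 site of 4764 bp, spanning chr5:132477415-132482178 and a transcript end, was an opening in all 6 libraries at low strength (2.84, 2.97 and 3.07, then 4.52, 3.52 and 3.61). At this site every 48 h library lay above every 24 h library before normalization, as at 0.807% of the 3347 sites found in all 6, and it did not pass the test (log2 difference 0.42, SE 0.16, limma adjusted p = 0.952). NLRC5 had a lasting opening 10006 bp from its start (8.83, 5.59 and 8.3, then 9.84 and 9.88) beside an early one 5950 bp from a start, which had 8.16 and 6.02 in 24 h A and C and no peak in the other 4 libraries. NLRC5 is the transactivator of MHC class I genes. It was the one gene of the lists with an early opening. CIITA, the transactivator of MHC class II genes, had a start peak in 5 libraries (8.17, 5.1 and 5.56, then 8.31 and 6.75) and a weak late opening (4.35 and 3.19). IRF5 was gained at 48 h, with 1 library at 24 h (4.51) and 2 at 48 h (6.54 and 7.55), and had a peak in 7 of the 8 EGF and all 4 CTRL libraries.

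The guanylate-binding proteins, GTPases that act against intracellular pathogens, had the highest share of genes with an opening among the 10 lists: 5 of 7 had a lasting opening and 5 of 7 a late one, counting a site for each gene within 50 kb. The GBP5 start was an opening in all 6 libraries (7.44, 5.66 and 5.07 at 24 h, 8.38, 7.94 and 4.92 at 48 h), and the times overlapped. The GBP4 start, with an ISRE and a GAS match, had 6.74 and 6.2 in 24 h A and C and 5.18 and 7.36 in 48 h A and B. The late openings near GBP1 (2.99 and 2.27) and GBP5 (2.89 and 3.36) were weak, and that near GBP7 had 4.45 and 9.79.

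Antigen presentation genes were counted by class. Of 17 MHC class I and processing genes 10 had a start peak at both times (58.8%, beside 51.3% of all protein-coding genes). TAP2, a peptide transporter, was gained (8.17 in 1 library of 24 h, then 7.57 and 11.1). The TAP2 start also had a peak in 7 of 8 EGF and 4 of 4 CTRL libraries. PSMB10, an immunoproteasome subunit, had a lasting opening at its start (5.38 and 4.79, then 6.91 and 5.77). Of 12 MHC class II genes 2 had a start peak at both times (16.7%). HLA-DMA (7.71, then 7.57 and 9.29) and HLA-DOB (4.08, then 5.34 and 5.11) were gained. The HLA-DMA start also had a peak in 1 CTRL library, and the HLA-DOB start in 3 EGF and 4 CTRL libraries. CD74, the invariant chain, had a lasting opening at its start (8.56, 4.77 and 7.94, then 8.81 and 7.59). The HLA-DRA start had a peak in 48 h B only (7.43). According to the study's methods, reads of the MHC region align poorly because of alternate contigs, so peak calls at these genes are uncertain.

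Of 23 chemokine and cytokine genes 15 had a start peak at both times (65.2%), and of 11 checkpoint and immune surface genes 8 (72.7%). Of all protein-coding genes 51.3% did. The starts of CXCL9 (5.27, 4.85 and 4.59, then 4.89 and 5.47) and CXCL11 (9.32 and 8.92, then 9.25 and 8.2), which draw T cells by the receptor CXCR3, were lasting openings, while CXCL10, of the same cluster, had 1 library at 24 h (8.68) and 2 at 48 h (4.24 and 9.37). The IDO1 start, of the enzyme that breaks down tryptophan, had 4.99, 3.81 and 5.21 at 24 h and 7.38 and 7.22 in 48 h A and B. It was one of the 56.6% of sites at which 48 h lay above 24 h before normalization, and it did not pass the test (log2 difference 0.18, SE 0.21, limma adjusted p = 0.736). An opening 15712 bp from a start of the cytokine gene IL7, with an ISRE match, was among the strongest lasting ones (16.6, 8.09 and 9.95, then 14.1 and 18). The CD274 start, of the ligand of the checkpoint receptor PD-1, had a peak in all 6 libraries (12.8, 6.76 and 9.43, then 14.1, 11.6 and 6.42) as well as in CTRL and EGF. TNFRSF14 was gained, with 0 libraries at 24 h and 5.94 and 7.37 at 48 h, and its start also had a peak in 1 CTRL library.

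Antiviral genes gave 4 of the 13 gained starts, which is 10.5% of the 38 on the list, near the 9.78% of all genes. MX2, a GTPase that blocks viral nuclear entry, had no start peak at 24 h and 4.83 and 7.38 at 48 h, XAF1, a promoter of apoptosis, had 4.35 and 7.37, and IFI27 went from 1 library (4.88) to 2 (5.05 and 5.89). IFIT2, which binds viral RNA, had no start peak at 24 h and 8 and 7.8 at 48 h, but also had one in 6 of 8 EGF and 3 of 4 CTRL libraries. The MX1 start was present at both times, at 5.6, 5.83 and 5.2 and then 11.9 and 12.6 (log2 difference 0.56, SE 0.22, limma adjusted p = 0.287). The RIGI start, of the RNA sensor, had 12.1, 9.56 and 8.88 and then 6.9 and 11.7 (log2 difference -0.71, SE 0.22, adjusted p = 0.173). Neither passed. IFIT3 had a lasting opening at its start (6.91, 4.81 and 6.96, then 7.99 and 6.82). Among cell death and complement genes CFB (4.98, then 7.57 and 6.97) and SERPING1 (6.93, then 5.06 and 9.3) were gained at their starts. The CFB start also had a peak in 5 of 8 EGF and 3 of 4 CTRL libraries. APOL3 had a lasting opening at its start (6.94, 6.37 and 5.05, then 6.12 and 9.13), and CASP8 had 2 late openings within 50 kb, both with an ISRE match.

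Of the 127 list genes with a site at the start, 21 had no peak there in any CTRL or EGF library. Of these, 11 were present in at least 2 of 3 libraries at both times, 3 went from 1 of 3 to 2 of 3, 2 (MX2 and XAF1) went from 0 to 2, 4 were seen in 48 h B only and 1 (CD40) in 24 h A only. In 48 h C, 17 of the 127 starts had a peak. At the 85 starts present in at least 5 libraries, the normalized log2 fold enrichment was lower at 48 h for 59, higher for 24 and equal to 2 decimals for 2, and 0 of the 85 passed the test. Over the 233 sites within 50 kb of the lists that were present in the 5 libraries, the median log2 difference was -0.07 and 39.1% were higher at 48 h, beside 0.01 and 51.2% for all sites near protein-coding genes. Guanylate-binding protein sites had a median of -0.3.

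**Figure D5:**
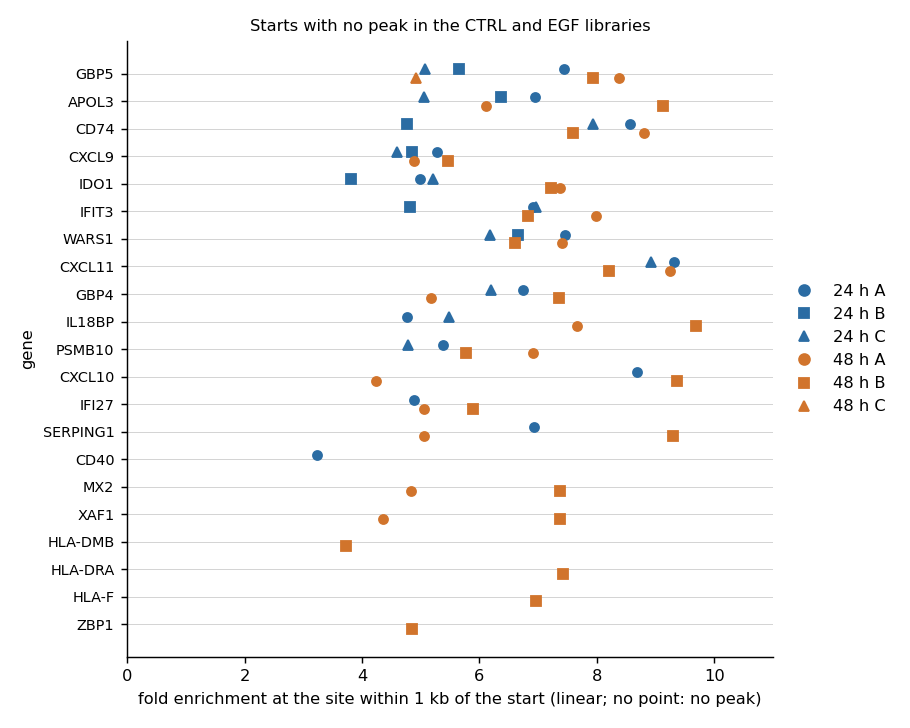
Fold enrichment (linear scale) at the start of the 21 interferon list genes with no start peak in CTRL or EGF, 1 point for each IFNG + EGF library with a peak; no point means no peak was called. For 11 of the genes at least 2 libraries of each time have a point; MX2, XAF1 and the 4 genes seen in 48 h B only have points of 48 h only, and CD40 of 24 h only.

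Beyond the lists, the opening with the highest values in all 6 libraries was at the start of AIM2, a sensor of cytosolic DNA (13.3, 11 and 9.87 at 24 h, 12.2, 14.4 and 5.35 at 48 h). Another, 17880 bp from a start of EID2 and with an ISRE match, had 10.2, 4.7 and 6.41 and then 9.76, 12.3 and 4.3. The strongest lasting openings included one inside CNOT6L with an ISRE match (17 and 10.9 in 24 h A and C, then 14.4 and 20.6) and one inside PHTF1 with an ISRE match (12.3 and 12.7, then 16.2 and 18.7). The strongest late openings lay inside CNTNAP3B (13.4 and 17.2), inside RIMKLB (13.6 and 16.1) and 153607 bp from ABI3BP (13.3 and 13.5), each with an ISRE match. The 4 openings in 3 of 3 libraries at 24 h and none at 48 h lay near PCDH8 (8.31, 3.81 and 5.73, with a GAS match), inside RPRD1B nearest to TGM2 (5.39, 4.28 and 3.92), inside TTC1 (7.07, 3.74 and 6.65, with a GAS match) and near TRDN (4.99, 5.71 and 5.48, with an ISRE match). At 264 lasting openings present in the 5 libraries, the median log2 fold enrichment over that of all sites was -0.15, -0.17 and -0.21 at 24 h and -0.31 and -0.16 in 48 h A and B, so the times overlapped.

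Motif use was last compared by library. The motif deviation is the excess, in percent, of a library's detected sites with a motif over the count predicted from its detection rates. Over 6 libraries the ISRE deviation differed by 25.01 percentage points (48 h minus 24 h, exact permutation p = 1, two-sided), with 48 h C at 83.00%. The GAS deviation differed by 101.81 points, with 48 h C at 333.34%, and the C/EBP deviation by -21.79 points, with 48 h C at -78.25%. Over the 5 libraries each of these differences had the opposite sign. There the ISRE deviation was -0.14%, 24.55% and 2.88% at 24 h and -1.88% and -1.17% at 48 h. The GAS deviation was 1.55%, 90.65% and 9.04% at 24 h and -4.22% and -8.06% at 48 h, and the C/EBP deviation -4.48%, -12.64% and -5.9% and then 4.43% and 2.58%. The groups did not overlap for any of these motifs, and the values of 24 h B, which had the fewest peaks of the 5, stood far from those of the other 24 h libraries. The exact p-values were 0.5, 0.4 and 0.1 (two-sided, smallest possible 0.1 for 3 against 2), and every adjusted p over the 18 strings was at least 0.75. With log2 fold enrichment in place of detection, GAS sites differed from all sites by 0.038, 0.073 and 0.048 at 24 h and by -0.018 and -0.032 at 48 h (1440 sites, exact p = 0.1, adjusted 0.45), and C/EBP sites differed by 0.066 in the other direction (exact p = 0.1, adjusted 0.45). The groups were without overlap for 10 of the 18 strings by detection, the reversed GAS control among them, and for 8 of 18 by strength.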

How the data were processed

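Omni-ATAC libraries were trimmed with Trimmomatic 0.36.5, aligned to hg38 with Bowtie2 2.3.4.1 and freed of duplicates with Picard by the authors, who called peaks in each library with MACS2 2.1.1.20160309.5. The deposited files list peaks without read counts. The deposited ratio is the fold enrichment over local background at the summit, the deposited −log10 values are of its p and q (smallest −log10 q 2), and the deposited score is a whole number made from q. Merged sites, adjusted detection and openings were computed from the peaks on primary chromosomes, with genes from GENCODE 44. Log2 fold enrichment was quantile normalized. Both were tested with limma 3.58.1 (R 4.3.3) with Benjamini-Hochberg adjustment, and single values by exact permutation. Other steps used Python 3.11.15. On simulated data the fold enrichment fits recovered most of the changed sites, while the detection fit called none of them. The changes simulated in fold enrichment were larger than the largest called in the fit of 13 libraries (1.46 on the log2 scale). Their noise was the same for every site and library, so the recovery of smaller changes was not tested. Named sites are the 10 strongest openings of each class, the 10 called sites of lowest p in each direction, and list genes by their start sites and openings within 50 kb; openings in all 3 libraries of a time were added after their values were seen. Members and lists were chosen with earlier results of these data known. Libraries of the same letter showed no steady correlation of deviations (0.202, -0.367 and -0.0693 for A, B and C), and no pairing was used. With 3 libraries of each time this does not settle whether the letters pair the samples.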

Additional observations from a re-analysis of the deposited data

How the results depend on the processing

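By detection, all alternatives but one kept 0 calls in both directions; 1 fit over all 42 libraries called 90 sites higher at 48 h and 423 higher at 24 h, and the cause was not tested. On simulated data the detection test over 6 libraries called none of the switched sites, so its counts of 0 are no sign of stability. By fold enrichment, calls at 48 h and at 24 h were 28 and 289 (median centring), 25 and 127 (cyclic loess) and 48 and 87 (with 8 EGF libraries), all over the 5 libraries without 48 h C and chosen after seeing the data; leaving out 1 library gave 0 at 48 h and 0 to 2 at 24 h. Openings (early, lasting, late) were 4, 5 and 0 in 3 of 3 libraries, 55, 585 and 1131 with −log10 q of at least 5, and 168, 206 and 105 at equal peak number; leaving out 1 library gave 4 to 270 early, 7 to 875 lasting and 2 to 2312 late. The ISRE deviation of 25.01 points was -0.09 by log2 fold enrichment and -10.63 to 40.72 when 1 library was left out. Leaving out 1 library gave differences in log10 peak number of -0.303 to 0.268 and in promoter share (-0.393 points, exact permutation p = 0.9) of -7.11 to 3.61 points. The mean adjusted detection difference near the interferon lists, 0.017, was -0.015 by log2 fold enrichment and 0.036 over the 5 libraries. With the replicate block, 0 sites passed by detection (633 at an unadjusted p below 0.05), by fold enrichment (95) or for the difference from EGF (2682), and the log10 peak number difference was -0.0993. These fits had 0 calls without the block too, and the block was not used in the fits that had calls. Depth is unknown, so a missing peak does not show a closed site.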

Other observations

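The 2 widest and weakest of the openings found in all 6 libraries covered long stretches rather than single elements. One was the IRF1 site of 4764 bp. The other spanned 3679 bp at chr14:100329782-100333460, 37784 bp from a start of WARS1 and nearest to SLC25A47, with fold enrichment 3, 3.08 and 3.62 at 24 h and 3.68, 2.99 and 4.22 at 48 h.

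A further 3 openings were found in all 3 libraries of 48 h, and each lay over 1 Mb from the nearest gene start, at distances of 3335368 bp and 1998801 bp from SRGAP2C and 1698917 bp from RPIA. They had a peak in 12, 8 and 8 of the 24 libraries of other treatments and no ISRE match.

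In the fit over all 42 libraries, 224 of the 423 sites higher at 24 h were openings, with the ISRE string in 26.5%, the GAS string in 14.7% and the AP-1 string in 46.3%. Of the 90 sites higher at 48 h, 0 were openings, 4.44% held the ISRE string and 22.2% the C/EBP string, and 10 had a peak in 48 h C. The detection of an opening has no spread in groups where it is always closed, and the share of calls that follows from this was not tested.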
